A study of Mus musculus with 14 samples.

Results

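The response of a mouse artery to ischemia was described by comparing the superior mesenteric arteries of 7 ischemic mice with those of 7 normal mice, across all genes and with the genotype held as an additive term. All 14 of the 14 RNA-seq libraries entered the comparison, 1 library per mouse. The mice were 8 weeks old, of C57BL/6 background, and fell into the groups Normal_Drp1 +/+ (3 mice), Normal_Drp1 flox/+ (4 mice), Ischemia_Drp1 +/+ (3 mice) and Ischemia_Drp1 flox/+ (4 mice). The +/+ mice are called WT and the flox/+ mice KO here, the latter because the study's text names its Drp1 +/- mice so, although they retain a copy of the gene. In the study's methods the Drp1 allele was disrupted by a frameshift made with CRISPR/Cas9, whereas the labels write flox, and no Cre driver is named. Ischemia was produced by withdrawing blood through a femoral artery under sodium pentobarbital. The names of the ischemic libraries carry a period of 2 h and the study's text gives a longer one. Whether normal mice were anaesthetized, catheterized or sampled at the same hour is not stated, so these steps cannot be told apart from ischemia. The question was which genes changed after ischemia whatever the Drp1 genotype.

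An artery of this kind has an inner layer of endothelium, a middle layer of smooth muscle and an outer layer of fibroblasts, nerves, resident immune cells and fat. Endothelial and smooth muscle cells answer danger signals through NF-kB, a family of transcription factors that inhibitor proteins hold in the cytoplasm. Once released, NF-kB switches on adhesion molecules that catch leukocytes, chemokines that attract them, and the genes of its own inhibitors, which close the loop. Immediate-early genes, which need no new protein to be switched on, respond to the same stimuli.

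Total counts per mouse were between 25612646 and 40255851 and did not separate the conditions (two-sided exact permutation test within genotype, p = 0.814). The first principal component, which held 25.4% of the variance, did not separate the conditions. Normal mice lay between -104.5 and 104.0 on it and ischemic mice between -71.0 and 38.4. On the second principal component, which held 13.9% of the variance, the 7 ischemic mice lay between 19.7 and 57.3 and the 7 normal mice between -98.4 and 6.54. Markers of the arterial wall were present in every library: the 6 smooth muscle cell markers summed to 6865 to 36534 CPM (counts scaled to library size, here with edgeR's TMM factors) and the 7 endothelial cell markers to 663 to 1811 CPM. One smooth muscle marker, Tagln, was an exception, with a mean of 2.54 CPM in normal mice against 8134 CPM for Acta2, and how its reads were assigned was not tested. Fat also differed between mice, with summed brown adipocyte markers of 189 to 7051 CPM in normal and 284 to 5043 CPM in ischemic mice. The targeted gene Dnm1l, which encodes the fission protein Drp1, was at 65.1 ± 11.9 CPM in normal and 71.8 ± 8.27 CPM in ischemic mice (SD, n = 7 each), a log2 fold change of 0.15 (standard error 0.11, FDR = 0.518) in edgeR's quasi-likelihood test. Replicate 3 of the normal WT mice was sequenced in lane 1 and the other 13 mice in lane 8, so lane and mouse cannot be told apart there.

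Between ischemic and normal mice 192 of the 17693 genes tested differed, of which 120 were higher and 72 lower in ischemic mice. A gene was called when its false discovery rate (FDR, Benjamini-Hochberg over all genes tested) was under 0.05 and its fold change over 1.5 in edgeR's quasi-likelihood test. Called genes thus made up 1.09% of those tested, 0.678% in the higher and 0.407% in the lower direction. Without adjustment, 3173 genes (17.9%) had a p under 0.05. Of these, 1521 were higher and 1652 lower in ischemic mice. Over all genes tested, 7990 log2 fold changes were positive and 9703 negative. All 7 ischemic mice lay above all 7 normal mice for 102 genes (0.576%) and below them for 48 genes (0.271%). The median log2 fold change was 1.38 among the called higher genes and -1.55 among the called lower genes, against -0.06 over all genes tested. Higher genes included 32 with a change of more than 4-fold, and lower genes 23. The number of calls depended on single mice. Without replicate 1 of the normal WT mice 367 genes were called and without replicate 3 of that group 300, whereas fewer were called without any mouse of the ischemic KO group (78 to 127), without ischemic WT replicates 2 (122) or 3 (102), and without normal KO replicates 2 (67), 3 (109) or 4 (84).

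**Figure D1:**
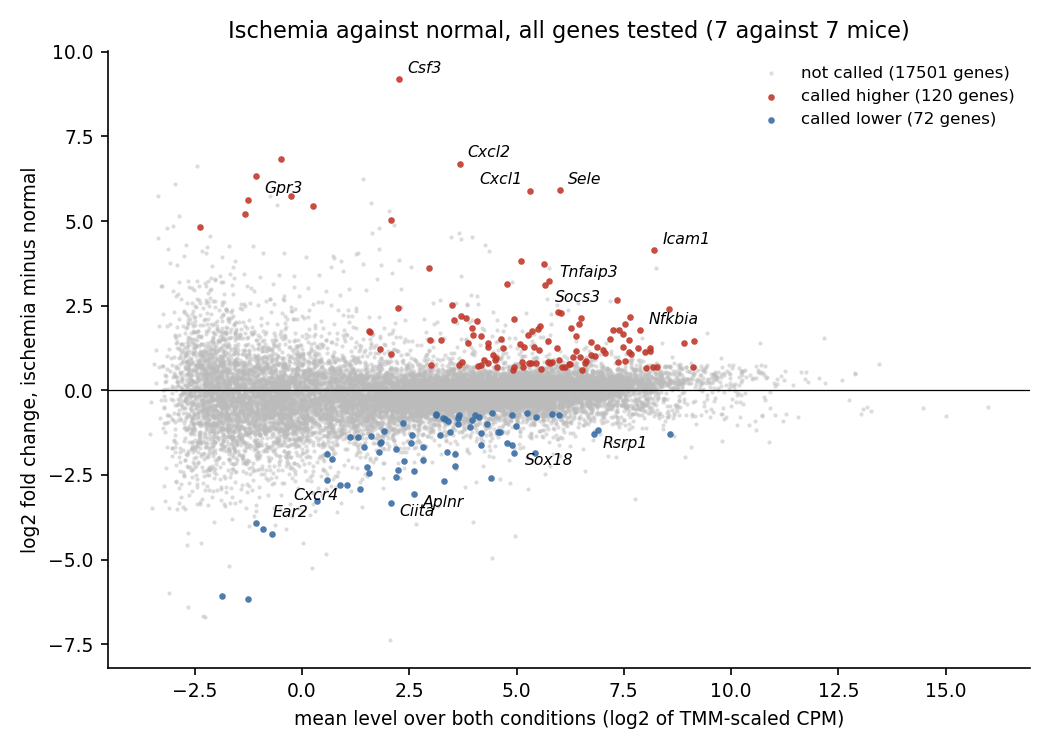
Log2 fold change (ischemia minus normal, vertical axis) against the mean level over both conditions (log2 of TMM-scaled CPM, horizontal axis) for the 17693 genes tested in 7 ischemic and 7 normal mice. Each point is a gene; the 120 called higher are red, the 72 called lower are blue, and Icam1, at 4.14, stands out among the abundant risers. Fitted values of genes with almost no counts in normal mice, such as Csf3 and Gpr3, depend on the prior count.

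Inhibitors and subunits of NF-kB rose. The gene lists used from here on were chosen with earlier results of these data known, so their shares of called members are a description. Of the 20 genes of the NF-kB list, 6 were called higher and 0 lower, 19 had a positive log2 fold change, and the median was 0.87. Over all 17693 genes tested, 7990 had a positive log2 fold change. Nfkbia, which encodes the inhibitor IkBa and is a direct target of NF-kB, had the smallest p of all genes. Its lowest, median and highest levels were 68.5, 105 and 135 CPM in the normal mice and 279.5, 356 and 467 CPM in the ischemic mice. The groups were fully apart, with the lowest ischemic mouse above the highest normal mouse. This was a log2 fold change of 1.78 (standard error 0.14, FDR = 3.87e-05), the same in either genotype (1.77 in WT mice and 1.79 in KO mice). Nfkbia lies on chromosome 12 (chr12:55489410-55492647, minus strand, GRCm38, GENCODE M21). Because it leads the comparison, the 250 bases before its start are shown, from RefSeq on GRCm38.p6, chr12:55492648-55492897 (minus strand), written 5′ to 3′ on the gene's strand with a match to the kB motif in capitals:
Nfkbia: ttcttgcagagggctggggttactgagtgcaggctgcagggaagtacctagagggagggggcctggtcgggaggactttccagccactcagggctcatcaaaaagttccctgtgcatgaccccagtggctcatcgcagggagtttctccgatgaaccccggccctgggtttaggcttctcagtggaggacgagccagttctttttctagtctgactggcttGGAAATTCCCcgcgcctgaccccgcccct
The match covers bases -29 to -20, counted back from the start. The kB motif (10 letters, searched on both strands) was found in 3.77% of all 27025 promoters of the table in windows of that length. Among the 12115 promoters of genes tested the share was 4.6%. A match is a description of letters, not of binding. Nfkbia and Sele were chosen for display after their values were seen.

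Tnfaip3, encoding A20, a ubiquitin-editing enzyme that shuts off NF-kB signalling, ranged over 5.89 to 19.4 CPM (median 7.19) in the normal mice and 42.9 to 246 CPM (median 64.2) in the ischemic mice, without overlap. This was a log2 fold change of 3.24 (standard error 0.44, FDR = 0.00333). Nfkbiz, an atypical nuclear inhibitor that acts as a cofactor on selected targets, was at 12.3 to 30.0 CPM (median 16.6) in the normal mice and 32.8 to 105 CPM (median 50.8) in the ischemic mice, again without overlap, a log2 fold change of 1.76 (standard error 0.22, FDR = 0.00304). The subunit gene Rel went from a median of 1.22 to 4.17 CPM (log2 fold change of 1.75 (standard error 0.31, FDR = 0.0168)). Relb, a subunit of the noncanonical branch, differed less, with a log2 fold change of 1.27 (standard error 0.26, FDR = 0.0285). Both subunits had every ischemic mouse above every normal mouse. Birc3, encoding the ubiquitin ligase cIAP2, had 1 ischemic mouse within the normal range and a log2 fold change of 1.63 (standard error 0.31, FDR = 0.0202). Rela, the main transactivating subunit, had a log2 fold change of 0.58 and was not called because its fold change was under 1.5 (FDR = 0.0339). Calls were lost without normal KO replicate 2 for Rel, Birc3 and Relb, without normal KO replicate 4 for Birc3 and Relb, and without normal KO replicate 3 or ischemic KO replicates 1, 2 or 3 for Relb, so the count of called members was 3 without normal KO replicate 2, 4 without normal KO replicate 4 and 5 to 8 without any other mouse.

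**Figure D2:**
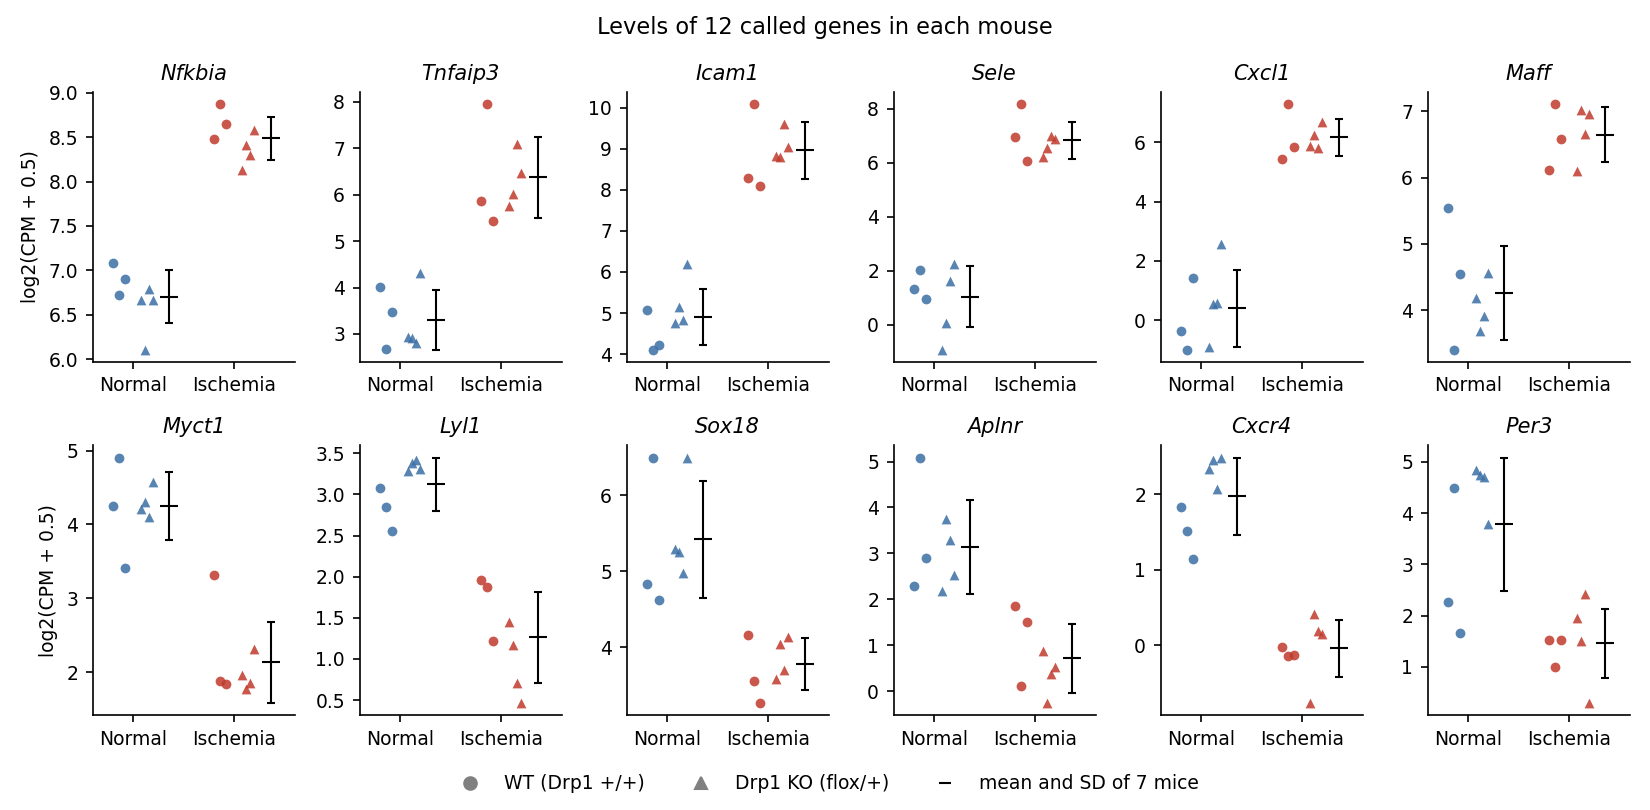
Levels of 12 called genes in each of the 14 mice, as log2(CPM + 0.5) with a separate vertical scale per gene; blue points are normal and red points ischemic mice, circles WT and triangles KO, and the bar beside each group is its mean with the SD of 7 mice. In the upper row all ischemic mice lie above all normal mice; in the lower row they lie below them except for Per3, where the groups overlap.

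The endothelial adhesion molecules that capture leukocytes rose steeply. Icam1, a ligand of leukocyte integrins on chromosome 9 (chr9:21015985-21028817), had lowest, median and highest levels of 16.7, 27.9 and 72.6 CPM in the normal mice and 272, 452 and 1089.7 CPM in the ischemic mice. No mouse of either condition came near the range of the other. The log2 fold change of 4.14 (standard error 0.4, FDR = 0.000364) corresponded to 32.9 CPM on average in normal mice and 556 CPM in ischemic mice. Sele, encoding E-selectin, on which leukocytes begin to roll, had levels of 0.0282, 1.98 and 4.2 CPM in the normal mice and 67, 116 and 286 CPM in the ischemic mice. It was nearly silent in normal arteries, and its log2 fold change of 5.92 (standard error 0.67, FDR = 0.00133) was of similar size in both genotypes (6.09 in WT mice and 5.79 in KO mice). Selp, encoding P-selectin, ranged over 2.71 to 12.2 CPM (median 6.23) in the normal mice and 21 to 259 CPM (median 53.1) in the ischemic mice and did not overlap, with a log2 fold change of 3.73 (standard error 0.59, FDR = 0.00913). Vcam1, a second integrin ligand, had 1 ischemic mouse within the normal range and a log2 fold change of 2.67 (standard error 0.45, FDR = 0.0127), a call that DESeq2 did not make. With these, 4 of the 15 tested adhesion genes were called higher and 0 lower, while the list's median was -0.09. Constitutive junction genes were not called, with log2 fold changes of -0.17 for Pecam1, -0.2 for Cdh5 and -0.09 for Icam2. The 7 endothelial cell markers were likewise all uncalled, and their summed level had a median of 1152 CPM in normal and 1032 CPM in ischemic mice. Sele is shown as the adhesion gene with the largest rise, with the 250 bases before its start (chr1:164047984-164048233 (plus strand), GRCm38.p6, RefSeq) and an AP-1 match at -73 to -67 in capitals:
Sele: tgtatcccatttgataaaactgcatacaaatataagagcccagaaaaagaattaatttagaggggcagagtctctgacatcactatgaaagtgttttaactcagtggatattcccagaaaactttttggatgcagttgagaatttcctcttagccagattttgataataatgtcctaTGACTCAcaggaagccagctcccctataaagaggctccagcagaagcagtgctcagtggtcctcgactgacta
The AP-1 motif TGANTCA, which reads the same on both strands, was present in 6.85% of all promoters and in 4.64% of those of genes tested. No kB match was found with the letters searched in this window, which says nothing about NF-kB at this gene.

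Among secreted signals, the neutrophil-directed genes moved most. Csf3, which encodes G-CSF, the growth factor of neutrophils, was counted 3 times in all normal mice together, in a single KO mouse, and 2128 times in the ischemic mice. The ratio of the scaled levels was 724, with an exact 95% counting interval of 247 to 3512 that covers counting error only. All 7 ischemic mice, at 0.274 to 31.5 CPM, lay above the highest normal mouse, at 0.0678 CPM, and the FDR was 0.00338 in edgeR's test, whereas limma-voom did not call Csf3 (adjusted p = 0.115). Cxcl2 and Cxcl1, chemokines that attract neutrophils through the receptor Cxcr2, behaved alike. Cxcl1 was at 0, 0.955 and 5.37 CPM in the normal mice and 42.6, 58.2 and 156 CPM in the ischemic mice, and Cxcl2 at 0 to 1.5 CPM (median 0) in the normal mice and 12 to 45.1 CPM (median 18.6) in the ischemic mice. Neither showed overlap, and their log2 fold changes were 5.9 (FDR = 0.00583) and 6.7 (FDR = 0.00502). They were the only called members of 22 tested chemokine ligands, whose median was 0.35. Ptx3, a soluble pattern recognition protein, was at 0.0295 to 0.655 CPM (median 0.309) in the normal mice and 0.821 to 20.7 CPM (median 2.49) in the ischemic mice with a log2 fold change of 5.02 (standard error 0.92, FDR = 0.019), and lost its call without normal KO replicate 2 and in limma-voom (adjusted p = 0.193). Il6 had a log2 fold change of 5.3 but an FDR of 0.0799 and was not called.

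Inhibitors of cytokine signalling rose as well. Socs3, the inhibitor of signalling from IL-6 type receptors, had levels of 6.39, 10.5 and 16.9 CPM in the normal mice and 20.1, 47.2 and 187 CPM in the ischemic mice. All ischemic mice exceeded all normal mice, with a log2 fold change of 3.1 (standard error 0.53, FDR = 0.0127). Socs2, which restrains growth hormone signalling, ranged over 27.7 to 64.1 CPM (median 42.4) in the normal mice and 83.6 to 169 CPM (median 119) in the ischemic mice, also without overlap, a log2 fold change of 1.61 (standard error 0.23, FDR = 0.00432). In the list of cytokines and Socs genes 4 of 17 were called higher and 0 lower, with a median of 1.61. Markers of neutrophils themselves were scarce: they summed to a median of 2.48 CPM in normal and 3.89 CPM in ischemic mice, with 5 of 6 tested markers not called. The exception, Ngp, a granule protein gene named after its values were seen, had 2 counts in all normal mice and 316 in the ischemic mice, a ratio of 161 with an exact 95% counting interval of 44.3 to 1337 (FDR = 0.0322). Its ranges overlapped, since ischemic KO replicate 1 had no count of Ngp and ischemic WT replicate 1 was at 0.0304 CPM, against 4.63 CPM in ischemic WT replicate 2 and 3.19 CPM in ischemic KO replicate 3. No neutrophil marker was called by limma-voom, with the genotypes at equal weight, or without normal WT replicate 2, any normal KO mouse, ischemic WT replicates 2 or 3 or ischemic KO replicates 2, 3 or 4.

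Immediate-early genes were split. Of 29 tested, 8 were called higher and 1 lower, 19 were higher at an unadjusted p under 0.05, and the median was 0.90. Csrnp1, encoding a nuclear protein that binds DNA, was at 16.7, 32 and 55.9 CPM in the normal mice and 74.6, 128 and 155 CPM in the ischemic mice, with the groups apart. Its log2 fold change of 1.85 (standard error 0.21, FDR = 0.00133) was the smallest p of this list. Maff, a small Maf protein that pairs with CNC factors such as Nrf2 and is thus also on the antioxidant list, ranged over 10.1 to 46.2 CPM (median 17.7) in the normal mice and 67.8 to 137 CPM (median 100.2) in the ischemic mice, without overlap, a log2 fold change of 2.33 (standard error 0.31, FDR = 0.00315). Zfp36, which encodes the mRNA-destabilizing protein tristetraprolin, was at 77 to 249.7 CPM (median 154) in the normal mice and 291 to 581 CPM (median 372) in the ischemic mice and had a log2 fold change of 1.16 (standard error 0.22, FDR = 0.0206). Junb, a subunit of AP-1, had a log2 fold change of 1.78 (standard error 0.32, FDR = 0.0161), with 1 ischemic mouse within the normal range, and Fosl2, a further subunit, a log2 fold change of 1.51 (standard error 0.27, FDR = 0.0175), with 2 such mice. Ier5, an early response gene, had a log2 fold change of 1.38 (standard error 0.26, FDR = 0.0205). The AP-1 subunit gene Fosl1 (5.2) and Ier2 (0.9) were also called higher, and Klf2, an endothelial factor maintained by laminar flow, was the single called lower member (-1.17, FDR = 0.0339). These last 3 genes were named after their values were seen, and Klf2 was not called without normal KO replicates 2, 3 or 4, ischemic WT replicates 2 or 3, or ischemic KO replicates 1, 2 or 3. Fos, the classical member, had a log2 fold change of -0.03 (FDR = 0.969), and Egr1 one of 0.32 (FDR = 0.475). The number called higher was 4 without normal KO replicate 2, normal KO replicate 4 or ischemic KO replicate 2, 5 without ischemic WT replicate 3, 11 without normal WT replicate 1, and 6 to 9 without any other mouse. Fosl2 lost its call without normal KO replicate 2, Zfp36 without normal KO replicate 4 or ischemic KO replicate 2, and Ier5 without any of these 3 or ischemic WT replicate 3.

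The 4 immediate-early genes of smallest p are shown with their upstream 250 bases because they rose together, each 5′ to 3′ on its own strand (RefSeq, GRCm38.p6). They come from chr9:119984743-119984992 (minus strand) for Csrnp1, chr15:79346371-79346620 (plus strand) for Maff, chr8:84978749-84978998 (minus strand) for Junb and chr5:32136222-32136471 (plus strand) for Fosl2. Capitals mark matches to CRE (TGACGTCA), its short form TGACG, AP-1 (TGANTCA), the CArG box or the kB motif, on either strand:
Csrnp1: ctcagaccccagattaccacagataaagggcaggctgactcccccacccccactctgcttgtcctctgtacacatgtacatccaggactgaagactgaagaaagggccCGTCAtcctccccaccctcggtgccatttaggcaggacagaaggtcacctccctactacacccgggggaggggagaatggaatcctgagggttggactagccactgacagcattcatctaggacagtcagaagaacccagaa
Maff: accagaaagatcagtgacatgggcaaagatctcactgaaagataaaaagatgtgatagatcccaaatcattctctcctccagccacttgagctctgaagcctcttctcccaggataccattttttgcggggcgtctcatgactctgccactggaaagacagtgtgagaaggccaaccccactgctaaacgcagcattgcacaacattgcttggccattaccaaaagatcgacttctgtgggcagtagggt
Junb: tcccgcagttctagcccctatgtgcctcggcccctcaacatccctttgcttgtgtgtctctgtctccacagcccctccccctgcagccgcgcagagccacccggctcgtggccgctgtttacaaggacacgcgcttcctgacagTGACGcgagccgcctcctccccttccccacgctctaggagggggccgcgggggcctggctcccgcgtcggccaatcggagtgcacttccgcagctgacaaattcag
Fosl2: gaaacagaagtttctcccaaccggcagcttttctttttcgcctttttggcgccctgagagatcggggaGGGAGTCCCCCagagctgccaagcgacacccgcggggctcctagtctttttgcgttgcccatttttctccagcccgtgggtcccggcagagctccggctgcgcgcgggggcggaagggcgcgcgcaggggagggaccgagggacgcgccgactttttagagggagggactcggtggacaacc
The short CRE form was found in Csrnp1 (-142 to -138, reverse strand) and Junb (-106 to -102), and stood in 17.9% of all promoters, against 1.62% for the full CRE, which contains it, and 1.37% for the CArG box. Among promoters of genes tested these shares were 25.2%, 2.51% and 1.19%. Fosl2 held overlapping kB matches on both strands from -182 to -172, and Maff none of the motifs. The table's start lies 671 bases from the GENCODE gene start for Fosl2, 84 bases for Csrnp1 and 30 bases for Junb, and coincides with it for Maff, Nfkbia and Sele. No motif group was compared between genes that rose and genes that did not.

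Other genes at the head of the higher list act on second messengers, RNA and chromatin. Pde4b, a phosphodiesterase that breaks down cAMP, had levels of 27.7, 30.7 and 55.6 CPM in the normal mice and 74.8, 136 and 209 CPM in the ischemic mice. The groups did not meet, and the log2 fold change of 1.97 (standard error 0.23, FDR = 0.00172) was seen in both genotypes (1.6 in WT mice and 2.24 in KO mice). Zc3h12a encodes Regnase-1, an RNase that degrades cytokine mRNAs, and ranged over 8.73 to 17.5 CPM (median 9.6) in the normal mice and 27.7 to 94.2 CPM (median 44.2) in the ischemic mice with a log2 fold change of 2.11 (standard error 0.27, FDR = 0.00315). Gpr3, a receptor that raises cAMP without a ligand, had 2 counts in all normal mice and 214 in the ischemic mice, a ratio of 109 with an exact 95% counting interval of 29.9 to 907. Irf2bp2, a transcriptional corepressor, was higher by a smaller but steady margin (91.5 to 172 CPM (median 117) in the normal mice and 217 to 351 CPM (median 277) in the ischemic mice, log2 fold change of 1.13 (standard error 0.14, FDR = 0.00293)). Elmsan1, a scaffold of a histone deacetylase complex, had a log2 fold change of 0.99 (standard error 0.13, FDR = 0.00315). For all 5 genes every ischemic mouse was above every normal mouse, which their choice by smallest p favours. Over all genes tested this held for 102 (0.576%).

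Stress programmes moved in part. Ddit4, which encodes REDD1, an inhibitor of mTORC1 induced by energy stress and glucocorticoids, was at 41.2, 72.9 and 142 CPM in the normal mice and 128, 269.9 and 480.4 CPM in the ischemic mice. Only the edges of the groups overlapped, and it had a log2 fold change of 1.95 (standard error 0.3, FDR = 0.00663). Cdkn1a, encoding the cell cycle inhibitor p21, and Mt2, a metallothionein, were the other called members of the glucocorticoid list (3 of 26 higher, 0 lower, median 0.72), with a log2 fold change of 2.17 (standard error 0.46, FDR = 0.0348) and a log2 fold change of 2.39 (standard error 0.54, FDR = 0.0487). Both calls depended on single mice. Cdkn1a was called without normal WT replicates 1 or 3 or ischemic WT replicate 1 and lost without any of the other 11 mice, and Mt2 was called without normal WT replicate 1, normal KO replicate 1 or ischemic WT replicate 1 and lost without any of the other 11. Cdkn1a was also lost without a genotype term, and Mt2 with both other scalings in edgeR and with the genotypes at equal weight. The list's count was 6 without ischemic WT replicate 1, 5 without normal WT replicate 1, 4 without normal KO replicate 1, 2 without normal WT replicate 3 or normal KO replicate 3, and 1 without any other mouse. Ppp1r15a, which encodes GADD34, the subunit that reverses the integrated stress response, ranged over 35.8 to 129 CPM (median 42.5) in the normal mice and 131 to 175 CPM (median 155) in the ischemic mice and barely separated, a log2 fold change of 1.44 (standard error 0.24, FDR = 0.011). Atf4, the transcription factor of that response, had a log2 fold change of 0.87 (standard error 0.16, FDR = 0.0182), a call lost without normal KO replicates 2 or 4 or ischemic KO replicate 2. The unfolded protein list thus held 3 higher of 27, Ddit4 included, with a median of 0.26. Bag3, a co-chaperone of Hsp70, was at 107 to 169 CPM (median 128) in the normal mice and 209 to 403 CPM (median 266) in the ischemic mice, without overlap, and was the single called member of 32 heat shock genes (log2 fold change of 1.08 (standard error 0.16, FDR = 0.00583)); 2 were called without normal WT replicate 1 or normal KO replicate 1 and 3 without normal WT replicate 3. Maff alone was called among 32 antioxidant genes, whose median was -0.09. In the Bcl2 family 1 of 24 genes was called, Bcl2l1, which encodes the survival factor Bcl-xL, with 56.5 to 213 CPM (median 81.5) in the normal mice and 204 to 295 CPM (median 269) in the ischemic mice, a log2 fold change of 1.29 (standard error 0.25, FDR = 0.0245). Bcl2l1 lost its call without normal KO replicates 2, 3 or 4, ischemic WT replicates 2 or 3, or ischemic KO replicates 1 or 2, and the family held 2 calls without normal WT replicate 1.

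The list of glycolysis and hypoxia-response genes held no call by edgeR. Of its 40 tested genes, 0 were called by edgeR and 1 by DESeq2, 4 were higher and 1 lower at an unadjusted p under 0.05, and the median was -0.07. Such a p was found for 17.9% of all genes tested. Slc16a3, the lactate exporter MCT4, had the smallest p, with 3.59 to 13.5 CPM (median 7.55) in the normal mice and 10.9 to 30.9 CPM (median 16.5) in the ischemic mice. The ranges overlapped and it had a log2 fold change of 1.16 (standard error 0.28, FDR = 0.0654), and it was called without normal WT replicate 1, normal KO replicate 1 or ischemic WT replicate 1. Vegfa, an angiogenic factor induced by HIF, had a log2 fold change of -0.47 (FDR = 0.544) and Ldha, lactate dehydrogenase A, one of -0.34 (FDR = 0.719). Negative feedback genes of MAP kinase signalling were not called either (0 of 16, median 0.06, 3 higher and 1 lower at an unadjusted p under 0.05, 1 in each direction called by DESeq2), with Spry4, an inhibitor of receptor tyrosine kinase signalling, first at a log2 fold change of 1.24 (standard error 0.36, FDR = 0.1).

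Clock genes moved in opposite directions. Per3, a repressor of the clock, had levels of 2.64, 22 and 28 CPM in the normal mice and 0.73, 2.37 and 4.85 CPM in the ischemic mice. Its highest normal values were found in KO mice and the ranges overlapped through the lowest WT mice, with a log2 fold change of -2.69 (standard error 0.49, FDR = 0.0182). Hlf, a factor whose own level is under clock control, was at 11.6 to 136 CPM (median 68) in the normal mice and 13 to 27.7 CPM (median 16.2) in the ischemic mice, a log2 fold change of -1.87 (standard error 0.39, FDR = 0.0334). Nfil3, a repressor acting on the same D-box elements, was higher (9.22 to 64.3 CPM (median 23.8) in the normal mice and 52.5 to 163 CPM (median 122) in the ischemic mice), with a log2 fold change of 2.29 (standard error 0.45, FDR = 0.0239). These were the called members (1 higher, 2 lower) of 23, of which 7 were higher and 8 lower at an unadjusted p under 0.05. The hour of sampling is not given for either condition, and its part was not tested. Per3 lost its call without ischemic KO replicate 2, Nfil3 without normal KO replicates 2, 3 or 4, ischemic WT replicate 2 or ischemic KO replicate 2, and Hlf without any mouse other than normal WT replicates 1 or 3, normal KO replicate 1 or ischemic WT replicate 1. Hlf was also lost in limma-voom, with the genotypes at equal weight and with the replicate block.

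**Figure D3:**
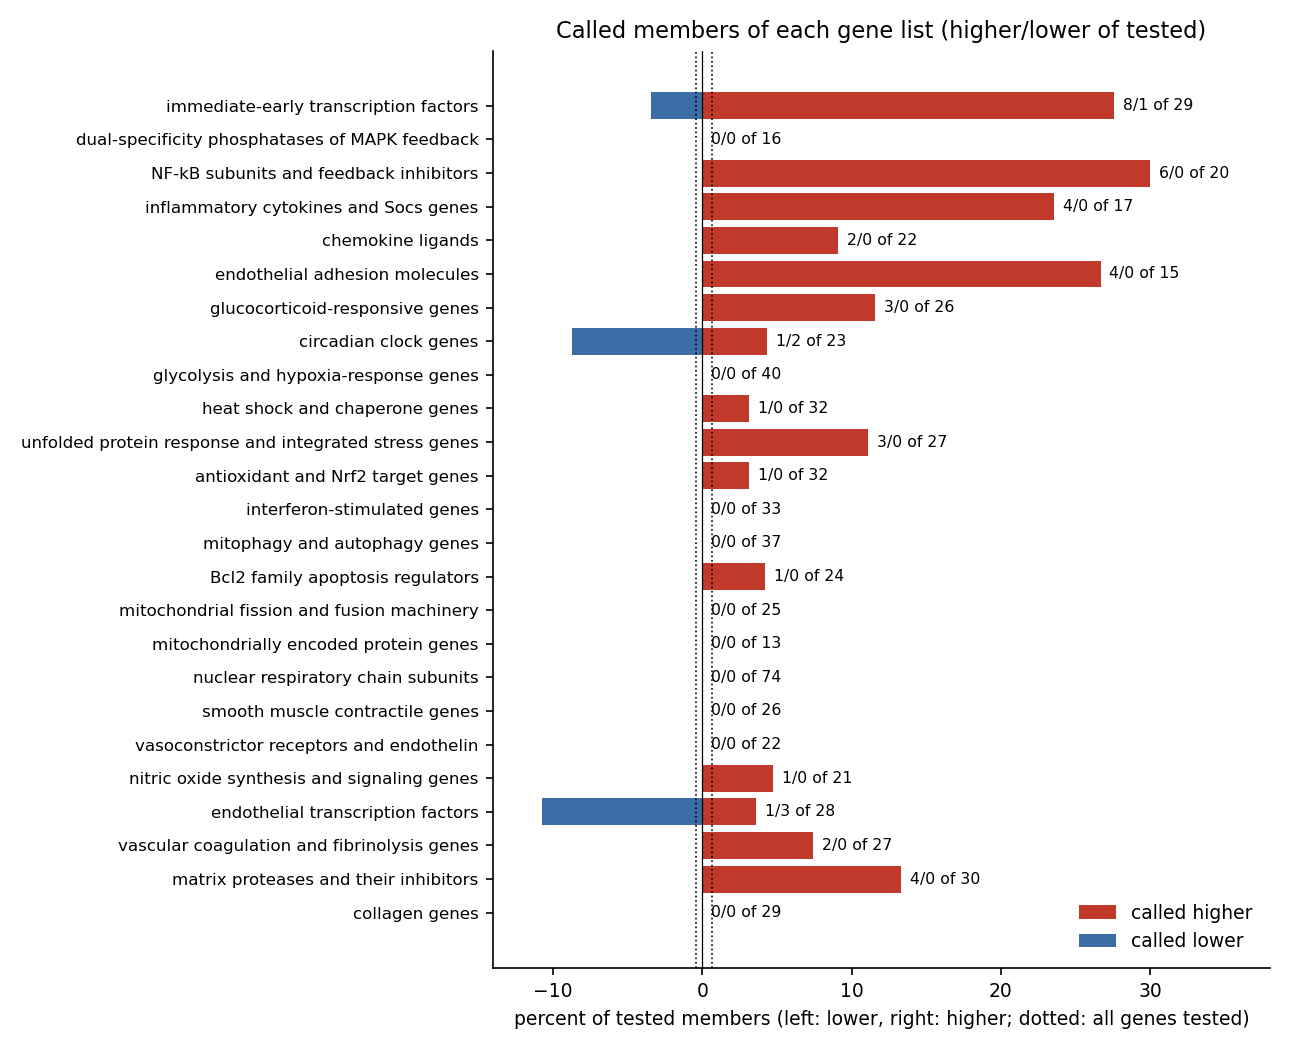
Share of the tested members of each gene list called higher (red, to the right) or lower (blue, to the left) after ischemia, in percent, with the counts of higher/lower of tested beside each bar; dotted lines mark 0.678% and 0.407%, the shares over all genes tested. NF-kB (6 of 20) and immediate-early genes (8 of 29) stand highest, and lists of mitochondrial machinery, glycolysis, contractile and collagen genes hold 0 calls. The lists were chosen with earlier results of these data known, so these shares are a description.

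Of the 5 lists of mitochondrial genes, the Bcl2 family held the single call; other mitochondrial genes were not grouped into lists. The list of mitophagy and autophagy had 0 of 37 called (median 0.00), and that of fission and fusion 0 of 25 (median -0.08). Their smallest p belonged to Bnip3l, a mitophagy receptor, with a log2 fold change of -0.34 (standard error 0.13, FDR = 0.188), and to Pdzd8, a protein of contact sites between organelles, with a log2 fold change of 0.35 (standard error 0.15, FDR = 0.233). At an unadjusted p under 0.05, edgeR gave 3 mitophagy genes and 1 fission or fusion gene, and DESeq2 called 0 in either list. The 13 protein genes of the mitochondrial genome were all lower on average, with 9 at an unadjusted p under 0.05 and a median of -0.77. ND3, a subunit of complex I, had levels of 20.3, 26.2 and 57.6 CPM in the normal mice and 5.66, 15.4 and 19 CPM in the ischemic mice. Each ischemic mouse was below each normal mouse, yet its log2 fold change of -1.15 (standard error 0.29, FDR = 0.0657) did not pass. DESeq2 called 4 of the 13. As a share of all counts, the 13 genes took 17.8% ± 4.74 in normal and 11.9% ± 3.92 in ischemic mice (SD, n = 7 each; two-sided exact permutation test within genotype, p = 0.04). The share ran from 9.40 to 25.1% in normal WT, 15.8 to 19.9% in normal KO, 6.46 to 19.2% in ischemic WT and 11.1 to 13.8% in ischemic KO mice, so that WT mice overlapped and KO mice did not. Leaving out 1 mouse gave exact permutation p values from 0.00714 (without normal WT replicate 3) to 0.0714 (without ischemic WT replicate 1), and p stayed under 0.05 without normal WT replicate 3, normal KO replicate 3, ischemic WT replicate 2 or ischemic KO replicate 3 and not without the other 10. Nuclear genes of the respiratory chain had a median of -0.41 over 74 genes with 0 called by edgeR, 1 by DESeq2 and 1 at an unadjusted p under 0.05, and this median was -0.97 in WT and 0.05 in KO mice. With single mice left out, the median over both genotypes ran from -0.54 to -0.02, so it depended on single mice. Brown adipocyte markers had medians of -1.66 in WT and 0.10 in KO mice. In normal WT replicates 1, 2 and 3 they summed to 189, 7051 and 1729 CPM. Their part in the values of the nuclear genes was not tested.

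Genes that fell include several of the vascular endothelium. Myct1, a gene expressed in endothelium, had levels of 10.2, 18.5 and 29.5 CPM in the normal mice and 2.92, 3.2 and 9.43 CPM in the ischemic mice. Every ischemic mouse was lower than every normal mouse, although ischemic WT replicate 1 lay close, and the log2 fold change of -2.22 (standard error 0.3, FDR = 0.00315) was the smallest p in this direction. Lyl1, a helix-loop-helix factor of blood and endothelial cells, was at 5.36 to 10.2 CPM (median 9.28) in the normal mice and 0.882 to 3.38 CPM (median 1.82) in the ischemic mice, apart, a log2 fold change of -2.08 (standard error 0.31, FDR = 0.00585). Sox18, a factor of endothelial and lymphatic development, had levels of 24, 37.8 and 89.7 CPM in the normal mice and 9.14, 12.5 and 17.4 CPM in the ischemic mice. It too was lower in each ischemic mouse, with a log2 fold change of -1.84 (standard error 0.32, FDR = 0.0138). Aplnr, the apelin receptor of veins and sprouting vessels, ranged over 4.06 to 33.5 CPM (median 6.95) in the normal mice and 0.338 to 3.1 CPM (median 0.943) in the ischemic mice, without overlap, a log2 fold change of -3.06 (standard error 0.52, FDR = 0.0127), a call that limma-voom did not make (adjusted p = 0.0616). Cxcr4, the receptor of the chemokine Cxcl12, on tip cells and leukocytes, was at 1.7, 3.7 and 5.09 CPM in the normal mice and 0.0891, 0.486 and 0.829 CPM in the ischemic mice. The groups were apart by more than the width of the ischemic range, with a log2 fold change of -2.8 (standard error 0.39, FDR = 0.00432). Card10, a scaffold that links receptors to NF-kB, was at 15.9 to 37.4 CPM (median 24.5) in the normal mice and 6.05 to 15.1 CPM (median 11) in the ischemic mice (log2 fold change of -1.27 (standard error 0.22, FDR = 0.0127)), again apart. Meox2, a homeobox factor, overlapped and had a log2 fold change of -1.89 (standard error 0.4, FDR = 0.0333). In a bulk sample, fewer cells of a type and less RNA per cell cannot be told apart. The 7 endothelial cell markers had negative values with a median of -0.46, 1 at an unadjusted p under 0.05 (Egfl7, -0.87), and Vwf had -0.03.

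In the list of endothelial transcription factors 3 of 28 were thus lower and 1 higher. The riser was Foxf1, a forkhead factor, with a log2 fold change of 1.24 (standard error 0.27, FDR = 0.0386), a call kept without normal WT replicate 1, normal KO replicate 1 or ischemic KO replicate 4 and lost without any of the other 11 mice and with upper-quartile scaling. Of the others, 8 more were lower at an unadjusted p under 0.05, against 1652 of all 17693 genes tested. The lower count was 6 without normal WT replicate 3 or ischemic WT replicate 1, 5 without normal WT replicate 1, and 2 or 3 without any other mouse. Meox2 lost its call without normal WT replicate 2, normal KO replicates 2, 3 or 4, ischemic WT replicate 2 or any ischemic KO mouse, in limma-voom and with the replicate block.

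Further lower genes, named for the size of their p or fold, belong to no list tested as a group, apart from Ccr2, a monocyte marker. Ciita, the master switch of MHC class II genes, had levels of 1.02, 3.0 and 37.4 CPM in the normal mice and 0.0912, 0.486 and 1.67 CPM in the ischemic mice. A single normal KO mouse, replicate 4, stood far above the rest, the ranges overlapped, and it had a log2 fold change of -3.34 (standard error 0.69, FDR = 0.0315). Ccr2, the receptor that calls monocytes from blood, ranged over 1.69 to 13.7 CPM (median 2.76) in the normal mice and 0.0304 to 1.46 CPM (median 0.612) in the ischemic mice, without overlap, a log2 fold change of -2.91 (standard error 0.6, FDR = 0.0308). Ear2, an eosinophil-associated ribonuclease, was at 0.415 to 5.64 CPM (median 2.1) in the normal mice and 0 to 0.921 CPM (median 0.178) in the ischemic mice, a log2 fold change of -3.26 (standard error 0.73, FDR = 0.0461). Trim14, an adaptor of antiviral signalling, was at 2.0 to 12.1 CPM (median 3.62) in the normal mice and 0.547 to 1.39 CPM (median 0.906) in the ischemic mice, without overlap, a log2 fold change of -2.45 (standard error 0.39, FDR = 0.00913). Vsir, the checkpoint protein VISTA of myeloid cells, had a log2 fold change of -1.24 (standard error 0.21, FDR = 0.0127), and Rassf4, a Ras association protein, a log2 fold change of -1.09 (standard error 0.19, FDR = 0.0127), both with slight overlap. AI467606 was lower in each ischemic mouse (1.62 to 5.22 CPM (median 3.07) in the normal mice and 0.138 to 0.943 CPM (median 0.476) in the ischemic mice, log2 fold change of -2.8 (standard error 0.43, FDR = 0.00685)). Of the 10 macrophage and monocyte markers 1, Ccr2, was called lower, all had negative log2 fold changes, 6 at an unadjusted p under 0.05, and their summed level was 101 to 373 CPM in normal and 42.5 to 189 CPM in ischemic mice. Of 6 lymphocyte markers tested 0 were called by edgeR and 1 lower by DESeq2, with 2 lower at an unadjusted p under 0.05 in edgeR. Erythroid markers, which follow the blood left in the tissue, summed to 107 to 592 CPM in normal and 4.62 to 186 CPM in ischemic mice, with all 5 lower at an unadjusted p under 0.05 and Alas2 called (-1.69, named after its values were seen). That count of 1 was 0 without any normal KO mouse, any ischemic KO mouse or ischemic WT replicate 3, 2 without normal WT replicate 3 and 5 without ischemic WT replicate 1, and it was 0 without a genotype term or with the genotypes at equal weight, 2 in limma-voom and 5 in DESeq2. The part of blood content in these genes was not tested. Ciita was called without normal WT replicates 1, 2 or 3, normal KO replicates 1 or 3, or ischemic WT replicate 1 and lost without the other 8 mice. Ear2 was called without normal WT replicates 1, 2 or 3 or normal KO replicate 1 and lost without the other 10, and Ccr2 was lost without normal KO replicates 2 or 4, ischemic WT replicate 3 or ischemic KO replicates 1, 2 or 4. All 3 were also lost in limma-voom and without a genotype term, Ciita and Ear2 with the replicate block, and Ciita with the genotypes at equal weight.

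**Figure D4:**
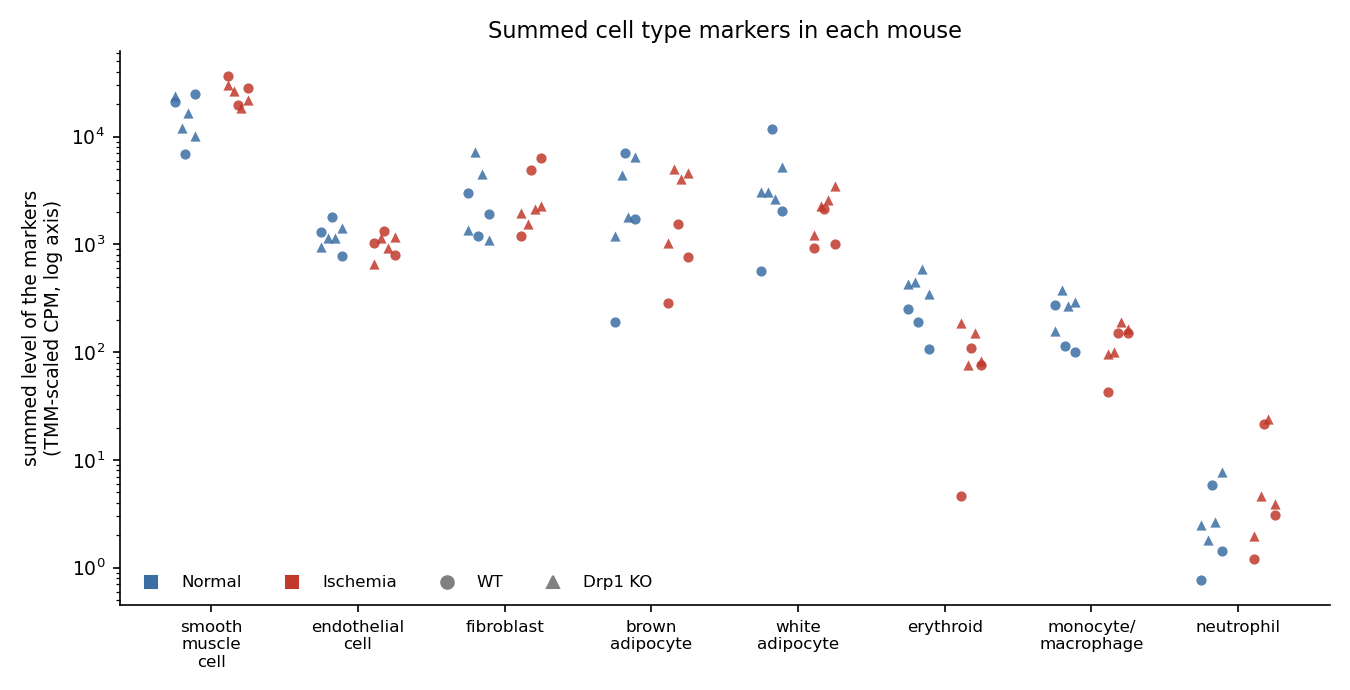
Summed level of the markers of 8 cell types in each of the 14 mice (TMM-scaled CPM, log axis), with normal mice in blue, ischemic mice in red, WT as circles and KO as triangles. Erythroid markers fell from a median of 346 to 83.5 CPM and smooth muscle markers stood at 16707 against 26451 CPM, while fat markers varied widely in both conditions.

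Interferon-stimulated genes had a shared sign without calls. Of 33 tested, 32 had a negative log2 fold change, 15 were lower at an unadjusted p under 0.05, 0 were called, and the median was -1.46. Over all 17693 genes tested, 9703 had a negative log2 fold change, 1652 were lower at such a p, and the median was -0.06. Cmpk2, a nucleotide kinase induced by interferon, had the smallest p, with 8.94 to 97.7 CPM (median 14.6) in the normal mice and 3.89 to 26.1 CPM (median 5.66) in the ischemic mice. One ischemic WT mouse lay within the normal range, and it had a log2 fold change of -1.79 (standard error 0.54, FDR = 0.112). DESeq2 called 3 of the list lower, as did edgeR without ischemic WT replicate 2. Irf1, a factor that NF-kB also switches on, had 0.03.

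Rsrp1, Ap3m2 and Trmt1l were the remaining lower genes of smallest p. Rsrp1, an arginine and serine rich protein gene, was the most abundant of them, with levels of 111, 166 and 177 CPM in the normal mice and 40.7, 60.4 and 110.2 CPM in the ischemic mice. It was lower in all ischemic mice than in any normal mouse, with a log2 fold change of -1.28 (standard error 0.21, FDR = 0.01). Ap3m2, a subunit of the AP-3 adaptor of vesicle transport, ranged over 10.8 to 20.3 CPM (median 17) in the normal mice and 5.5 to 10.2 CPM (median 8.65) in the ischemic mice and was apart (log2 fold change of -1.0 (standard error 0.17, FDR = 0.012)). Trmt1l, related to a tRNA methyltransferase, overlapped slightly and had a log2 fold change of -0.99 (standard error 0.17, FDR = 0.012).

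In the arterial wall, secreted proteases and receptors of coagulation rose, and contractile genes were not called. Of 30 matrix proteases and inhibitors 4 were higher and 0 lower, all of the ADAMTS family. Adamts1, which cleaves versican, was at 158, 248 and 382 CPM in the normal mice and 376, 694 and 1087 CPM in the ischemic mice, overlapping at the edges, a log2 fold change of 1.39 (standard error 0.27, FDR = 0.0228). Adamts15 had a log2 fold change of 1.79 (standard error 0.33, FDR = 0.019), Adamts9 a log2 fold change of 1.25 (standard error 0.26, FDR = 0.0315) and Adamts4, an aggrecanase, a log2 fold change of 3.62 (standard error 0.82, FDR = 0.0486). The count was 0 without normal KO replicate 2, 1 without normal KO replicate 4 or ischemic KO replicates 1 or 2, 2 without normal KO replicates 1 or 3, ischemic WT replicate 2 or ischemic KO replicate 3, and 3 or 4 without any other mouse. Adamts4 was called without normal WT replicate 1, ischemic WT replicate 1 or ischemic WT replicate 3 and lost without any of the other 11 mice, and it was also lost with both other scalings, in limma-voom, without a genotype term, with the genotypes at equal weight and with the replicate block. F2r, the thrombin receptor PAR1, was apart at 34.9 to 63.3 CPM (median 50.4) in the normal mice and 69.4 to 103 CPM (median 78.4) in the ischemic mice with a log2 fold change of 0.7 (standard error 0.14, FDR = 0.0294), and Plaur, the urokinase receptor, had a log2 fold change of 2.05 (standard error 0.4, FDR = 0.0246), making 2 higher of 27 coagulation genes. Plaur was not called by limma-voom. Neither of these 2 was called without normal KO replicates 2 or 4 or ischemic KO replicate 3, and the count was 1 without normal KO replicate 3, ischemic WT replicates 2 or 3, or ischemic KO replicates 1, 2 or 4. Slc7a1, the arginine transporter CAT-1, was the single called gene of 21 in nitric oxide synthesis, at 15.7 to 43.9 CPM (median 22.7) in the normal mice and 48.3 to 80.1 CPM (median 60.6) in the ischemic mice, a log2 fold change of 1.18 (standard error 0.22, FDR = 0.0205) that was lost without normal KO replicates 2, 3 or 4, ischemic WT replicate 2 or ischemic KO replicate 2.

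Smooth muscle contractile genes had positive values in 25 of 26 cases with a median of 0.51 and 0 called. Over all 17693 genes tested, 7990 values were positive. Actg2, the enteric form of smooth muscle actin, had a log2 fold change of 0.82 (standard error 0.28, FDR = 0.156), and Acta2, the vascular form, 0.79 (FDR = 0.209). The summed markers of smooth muscle had medians of 16707 CPM in normal and 26451 CPM in ischemic mice with overlapping ranges, and 6 of the 26 genes were higher at an unadjusted p under 0.05. Vasoconstrictor receptors and endothelin had 0 of 22 called, led by Adra2a, an adrenergic receptor, at a log2 fold change of -1.82 (standard error 0.56, FDR = 0.12), with -0.35 in WT mice and -2.9 in KO mice, an interaction that did not pass edgeR's adjusted test; Adra2a was called without ischemic WT replicate 1. Collagens had 0 of 29 called, led by Col4a1 of the basement membrane at a log2 fold change of 0.71 (standard error 0.18, FDR = 0.0708), which was called without normal WT replicate 1 or ischemic WT replicate 1. At an unadjusted p under 0.05 there were 3 of the 22 and 6 of the 29, and DESeq2 called 1 and 3 of them and 0 of the contractile genes. Such a p was found for 17.9% of all genes tested.

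The effect had the same sign in both genotypes for all 120 called higher and all 72 called lower genes, and 116 and 69 of them had an unadjusted p under 0.05 in each genotype. Over all genes, with each genotype taken separately, such a p was found for 4.1% higher and 5.47% lower in WT mice. In KO mice the shares were 5.75% higher and 7.47% lower. The share of all genes with such a p in both genotypes at once was not computed. The same mice chose the called genes, so their shared sign and p are a description. The median log2 fold change of the higher genes was 1.12 in WT and 1.53 in KO mice, and that of the lower genes -1.25 and -1.71. The test of whether ischemia acted differently in KO and WT mice, the interaction term of edgeR, called 0 genes, with 765 (4.32%) at an unadjusted p under 0.05 and 13 called by DESeq2. Among named genes, Lyl1 (-1.26 in WT mice and -2.69 in KO mice, unadjusted p = 0.009), Cdkn1a (0.99 in WT mice and 3.05 in KO mice, unadjusted p = 0.011), Ear2 and Nfil3 had the smallest interaction p of the called ones, none of which passed the adjustment. For Cdkn1a, normal WT replicate 1 was at 314 CPM, against 73.7 and 93.9 CPM in normal WT replicates 2 and 3. For Nfil3 the same mouse was at 64.3 CPM, against 23.8 and 25.7 CPM. The WT values of both genes thus lean on 1 normal mouse.

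The genotypes share no mice, so each was also fitted alone, a choice made after seeing the data. In the 8 KO mice 267 of 15947 genes were called (1.67%), 161 higher and 106 lower. In the 6 WT mice 0 of 15818 were called by edgeR, with 655 (4.14%) at an unadjusted p under 0.05 and 28 called by DESeq2. Of the KO-called genes tested in WT mice, 154 of 160 higher genes had the same sign there, against 47% of all genes with a positive sign, and 51 also had an unadjusted p under 0.05 in that direction, against 1.37% of all genes. Of the lower genes, 97 of 104 had the same sign, against 53%, and 23 an unadjusted p under 0.05, against 2.73%. Their median log2 fold changes in WT mice were 0.86 and -0.67.

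**Figure D5:**
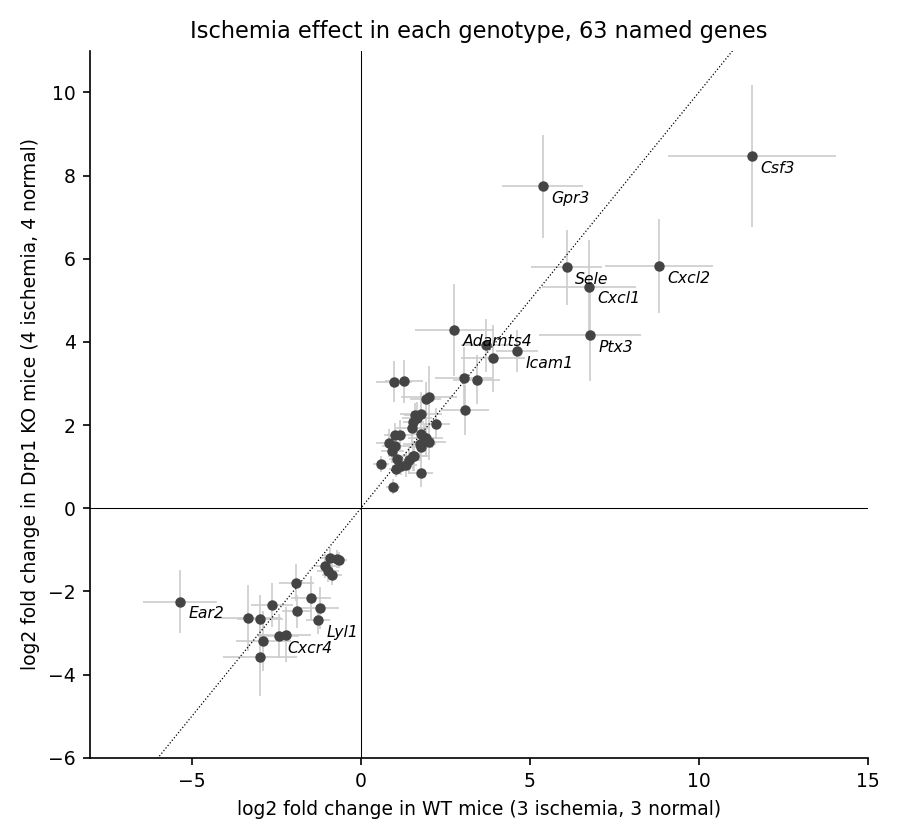
Log2 fold change after ischemia in KO mice (4 ischemic, 4 normal, vertical axis) against WT mice (3 ischemic, 3 normal, horizontal axis) for the 63 called named genes, from the fit of 4 groups; bars are standard errors and the dotted line marks equal effects. All 63 points lie in the quadrants of equal sign, which their selection over both genotypes favours; the values of Csf3 and Gpr3 depend on the prior count because normal mice had almost no counts.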

How the data were processed

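RNA of the superior mesenteric artery was extracted with Trizol and sequenced for 14 mice, 1 library each. Per the labels' processing notes the submitters used HISAT2 2.0.4 and mm10; the counting program, its annotation and its use of strand are not given in the sources used here, so reads of overlapping, antisense or near-identical genes could not be told apart. The authors deposited whole-number read counts per gene symbol, without normalization, for 46095 symbols, of which 27727 had a count. Each column was assigned to a mouse by its name, and 0 columns were left unused.

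The low-count filter filterByExpr, given the 4 groups, left 17693 genes. TMM-scaled libraries were fitted by quasi-likelihood in edgeR 4.0.16 (R 4.3.3) with genotype and condition as terms, and the FDR limit of 0.05 and fold limit of 1.5 follow the study's methods. The study's RVM F-test on log2 ratios was not used because it is not made for counts. Standard errors were derived from the F statistic. Fold changes in each genotype and the interaction came from a fit of 4 groups. Levels are TMM-scaled CPM. A prior count of 2 entered the log2 levels behind the principal components, the correlations of same-numbered mice and the brown adipocyte covariate. Fitted log2 fold changes used edgeR's default prior count. Single values were compared with a two-sided exact permutation test within genotype (1400 splits). The biological coefficient of variation was 0.528, so the spread between mice limits most values more than depth. A floor of 3 counts was taken as the smallest level the depth can show, and it covers counting error only. Within each group, every pair of libraries differed beyond sampling noise. The labels do not say whether mice came from separate litters.

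Named genes were the 12 called genes of smallest p in each direction, up to 6 called members of each list or its member of smallest p, the 5 called genes of largest fold in each direction with at least 1 CPM, and Dnm1l; any other gene was chosen once its values were known, which the text marks for called genes and which also holds for Rela, Il6, Fos, Egr1, Vegfa, Ldha, Pecam1, Cdh5, Icam2, Irf1, Acta2, Tagln, Egfl7 and Vwf. The comparison, its gene lists and tests were chosen with earlier results of these data known. Symbols of the mitochondrial genes were adapted to those in the table. Alternatives used limma 3.58.1, DESeq2 1.42.0, other scalings, filters and designs, and each mouse left out in turn. Steps were tested on simulated data. Coordinates are from GENCODE M21 on GRCm38, and promoters from RefSeq on GRCm38.p6. The result of 1 gene chosen by the rule for named genes is not reported here.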

Additional observations from a re-analysis of the deposited data

Results flagged for a closer look

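A mouse stood apart from the other 6 of its condition, by Dixon's test at the 95% level, in 8 of the 148 gene and condition groups examined among the named genes; chance flags about 1 in 20. Csf3 was counted at 0.0678 CPM in normal KO replicate 3 and at 0 in the other normal mice. For Myct1 the highest ischemic mouse was WT replicate 1 at 9.43 CPM, with the next at 4.47 CPM, and for Mt2 the same mouse was lowest at 173 CPM, with the next at 570 CPM. For Cxcr4 the lowest ischemic mouse was KO replicate 1 at 0.0891 CPM. For Ciita the highest normal mouse was KO replicate 4 at 37.4 CPM, with the next at 4.54 CPM. For Cmpk2, ischemic WT replicate 2 was highest at 26.1 CPM, within the range of the normal mice. Atp5g1, a subunit of the ATP synthase that was not called, was at 119 CPM in ischemic KO replicate 4, with the next mouse at 26.3 CPM. Dnm1l was at 90.9 CPM in normal WT replicate 3, the library of lane 1, with the next mouse at 65.7 CPM.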

How the results depend on the processing

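The 192 calls (62.5% of them higher) were 164 to 226 with other scalings, filters or limits, without a genotype term, with the genotypes at equal weight or in limma-voom. DESeq2 called 923 genes, 362 higher and 561 lower (39.2% higher), and 187 of the 192 were among them. With brown adipocyte markers as a covariate 719 were called, 373 higher and 346 lower (51.9% higher), 191 of them shared. Leaving out single mice gave 67 to 367 calls, lowest without normal KO replicate 2 and highest without normal WT replicate 1. Without the first replicates of both normal groups, which stood apart on the third principal component, it was 560, an alternative added after seeing the data, as were the fits of each genotype alone (0 in WT mice, 28 by DESeq2; 267 in KO mice, 1208 by DESeq2). With the replicate number as a block 266 genes were called and 0 for the interaction. Same-numbered mice are different animals. Their deviations from the group means correlated by -0.15 to 0.21, and 5 of 7 pairings were over 0.1. In 5 of the 7, the normal mouse correlated best with the ischemic mouse of its own number. Whether the numbers mark a shared batch or day was not tested. For the interaction, 0 genes were called by edgeR in every fit with a mouse left out and 13 by DESeq2. Of the 63 called named genes, 34 were called under each of the 25 alternatives that tested them, 29 were lost under some and 0 changed sign. Some of these genes, such as Sele and Cxcl1, were removed by the filter of an alternative and not tested there. Of the 11 others, 7 were called under some. The causes were not tested. A level of 3 counts or fewer in a mouse cannot be told from absence at this depth.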

Other observations

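Further called genes, named after their values were seen, belong to no list tested as a group. Their calls were not followed gene by gene through the alternatives, under some of which 29 of the 63 called named genes lost theirs. Among lower genes, C3ar1, the receptor of the complement fragment C3a, had a log2 fold change of -2.36, Hrh2, a histamine receptor, one of -2.64, and Ahr, the aryl hydrocarbon receptor, one of -2.37. Pdgfb, the growth factor by which endothelium recruits mural cells, was at -1.55, Lfng, which modifies Notch receptors, at -2.06, and Efna1, an ephrin ligand, at -1.32. Tcf7, a T cell factor, was at -2.04 and Klrk1, which encodes the receptor NKG2D, at -4.10, both from low levels. Neat1, the RNA scaffold of paraspeckles, was at -1.30. All of these had an FDR under 0.05 in edgeR's test.

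Among higher genes, Sdc4, a heparan sulfate proteoglycan of focal adhesions, had a log2 fold change of 1.26, Nod2, a sensor of bacterial wall fragments, 2.51, and Hilpda, a lipid droplet protein induced by hypoxia, 1.48. Hilpda was not on the list of glycolysis and hypoxia-response genes, which had 0 of 40 called. Gem, a small GTPase that damps calcium channels, was at 2.14, Sik1, a kinase induced by cAMP, at 1.65, Slc39a14, a zinc and iron importer, at 1.29, and Inhbb, a subunit of activin B, at 2.14. The FDR of each was under 0.05 in edgeR's test.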
